A study of Mus musculus with 30 samples.

Results

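Antigen-presenting cells carry surface proteins that set the strength of a T cell response, and 9 genes that encode such proteins are described here across spleen cell types and between 2 Smc3 genotypes. The genes are Cd80, Cd86, Cd40, Cd83, Cd274, Pdcd1lg2, Icosl, Tnfsf4 and Tnfsf9. They were taken by symbol from the feature table, in which each had 1 of the 32285 rows, matched to its Ensembl gene ID. Single-cell RNA sequencing was done on spleen cells depleted of red blood cells, with 2 libraries labelled Smc3-cKO and 2 labelled Smc3-WT. The SMC3 protein is part of cohesin, a ring that shapes chromatin into loops. By its title, the series concerns cohesin and the transcription factor PU.1 at super-enhancers of conventional dendritic cells (cDC). The labels give no Cre driver, sex or strain, and no number of animals per library. The protocol text gives an age, 6 to 8 weeks, only for mice whose sorted cells were used in the other assays. The series lists 30 samples, and the other 26 were not analysed here.

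CD80 and CD86 bind CD28 on T cells and give the second signal for activation, or bind CTLA-4, which restrains the response. CD274 (PD-L1) and PDCD1LG2 (PD-L2) bind the inhibitory receptor PD-1, ICOSL binds ICOS, and the TNF family ligands TNFSF4 (OX40L) and TNFSF9 (4-1BBL) bind TNFRSF4 and TNFRSF9. CD40 is the receptor by which T cells, through CD40 ligand, license dendritic and B cells, and CD83 limits the removal of MHC class II and CD86 from the surface. In lymphoid organs these proteins are known to be high on dendritic cells that have matured and express CCR7.

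Cd274 and Pdcd1lg2 are neighbours on mouse chromosome 19, with 22823 bases between the end of Cd274 and the start of Pdcd1lg2 in the RefSeq annotation of GRCm38.p6. Cd86 and Cd80 both lie on chromosome 16, 1791271 bases apart. Icosl is on chromosome 10 (78069368 to 78079525), Cd40 on chromosome 2 (165055614 to 165071654), Cd83 on chromosome 13 (43785112 to 43803133), Tnfsf4 on chromosome 1 (161395438 to 161418206) and Tnfsf9 on chromosome 17 (57105287 to 57107758). The promoter windows of 4 of the 9 genes were found in the RefSeq table, each 250 bases before to 50 bases after a transcript start. All windows found are shown, with no choice by level. In cDC2-like cells these 4 genes had lower levels in both Smc3-cKO libraries than in both Smc3-WT libraries, as described further on. So did Cd86 and Cd83, for which no window was found, and 18.9% of all genes tested. Capitals mark the motif matches that were found. The windows of Cd274 and Cd80 lie within the annotated span of their genes, downstream of the annotated gene start.
Cd274, chr19:29367188-29367487, plus strand: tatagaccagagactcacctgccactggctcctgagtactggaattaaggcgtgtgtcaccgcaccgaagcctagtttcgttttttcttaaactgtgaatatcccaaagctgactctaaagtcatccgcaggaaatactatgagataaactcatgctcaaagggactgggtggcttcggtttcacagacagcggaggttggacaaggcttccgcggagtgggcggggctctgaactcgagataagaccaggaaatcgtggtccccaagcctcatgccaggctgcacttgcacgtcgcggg
Pdcd1lg2, chr19:29410669-29410968, plus strand: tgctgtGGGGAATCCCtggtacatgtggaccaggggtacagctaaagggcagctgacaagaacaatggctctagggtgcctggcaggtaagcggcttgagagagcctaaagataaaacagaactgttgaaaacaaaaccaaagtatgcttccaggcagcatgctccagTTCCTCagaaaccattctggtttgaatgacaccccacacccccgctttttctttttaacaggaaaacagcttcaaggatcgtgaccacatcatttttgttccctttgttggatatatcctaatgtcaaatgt
Icosl, chr10:78069118-78069417, plus strand: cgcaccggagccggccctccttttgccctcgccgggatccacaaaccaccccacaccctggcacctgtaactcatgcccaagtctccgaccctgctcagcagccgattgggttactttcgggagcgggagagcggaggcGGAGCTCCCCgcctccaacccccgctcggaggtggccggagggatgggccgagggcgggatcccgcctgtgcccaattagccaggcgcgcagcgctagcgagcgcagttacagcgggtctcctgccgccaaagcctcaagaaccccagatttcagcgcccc
Cd80, chr16:38458683-38458982, plus strand: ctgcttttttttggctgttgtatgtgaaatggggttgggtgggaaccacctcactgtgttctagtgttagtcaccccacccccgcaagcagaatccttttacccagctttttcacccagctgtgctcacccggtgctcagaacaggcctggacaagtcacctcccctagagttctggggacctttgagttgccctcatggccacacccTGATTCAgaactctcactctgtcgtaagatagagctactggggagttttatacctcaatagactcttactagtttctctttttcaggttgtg

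The motifs searched on both strands were the PU-box core GAGGAA, the ETS-IRF composite, the IRF repeat, the AP-1 site TGANTCA and the kB motif of NF-kB. The window of Pdcd1lg2 held a kB motif, GGGGAATCCC, that begins at position -244 from the transcript start, and a PU-box core on the minus strand at -82. The Icosl window held a kB motif on the minus strand at -111, and the Cd80 window an AP-1 site, TGATTCA, at -42, which matches on both strands, as does the kB motif of Pdcd1lg2. None of the 5 motifs was found in the Cd274 window. Of 32851 promoter windows of the same length, 28.3% held the PU-box core, 8.46% the kB motif, 7.81% the AP-1 site, 3.44% the IRF repeat and 2.72% the ETS-IRF composite. The Icosl window was rich in GC, with 68.0% G or C and 26 CG pairs, against a median of 52.7% and 7.0 CG pairs over all windows. The Cd274 window had 52.7% and 15 CG pairs, the Cd80 window 49.7% and 3, and the Pdcd1lg2 window 46.0% and 3. A match is a description of these letters and shows no binding.

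The libraries held 40367056 and 46678046 UMIs (unique molecular identifiers, which stand for captured RNA molecules) in Smc3-cKO replicates 1 and 2, and 51299056 and 48970568 in Smc3-WT replicates 1 and 2. The 44803 cells kept fell into 51 clusters. Of these, 39 were named from marker genes, as "X-like" classes, and 12 were left unnamed, 11 of them because they carried markers of 2 lineages. The unnamed clusters took up 7.8% and 1.99% of the cells in the Smc3-cKO libraries, against 22.1% and 5.61% in the Smc3-WT libraries. The doublet caller marked 4.05% and 6.41% of Smc3-cKO cells, against 1.03% and 5.72% of Smc3-WT cells, so that Smc3-WT replicate 1 stands apart with the fewest doublets removed. Any 2 libraries shared 36 to 61 cell barcodes, 0.382% to 0.432% of the smaller one. Smc3 RNA itself did not separate the genotypes in cDC2-like cells, with a log2 change of 0.05 (SE 0.28). The kit reads 3′ ends, which may lie outside the deleted part, so this checks no label. The classes were named from marker lists, so high sums of a class's own markers follow from the naming and check no name. The 9 cDC1 markers, all detected, summed to 7788 to 10849 CPM in cDC1-like cells. The 10 maturation markers, all detected, summed to 4415 to 6433 CPM in mature cDC-like cells. The 12 red pulp macrophage markers, all detected, summed to 13997 to 22972 CPM in that class. The 8 cDC2 markers, all detected, summed to 1093 to 1507 CPM in cDC2-like cells, but also to 1271 to 1813 CPM in red pulp macrophage-like and 844 to 1036 CPM in classical monocyte-like cells, so their sum does not set that class apart. Of the 8, Cd209a and Mgl2 were at 0 in red pulp macrophage-like cells, and Mgl2 and Esam in classical monocyte-like cells. No label says that the 2 libraries of a genotype are 2 animals, so p-values measure the spread between libraries, which may be technical.

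Levels are given as UMIs of a gene per 1000000 UMIs of the class in a library (CPM). In summed counts, fewer cells with the RNA and less RNA per cell cannot be told apart. The plot of mean levels by class shows that each ligand has its own pattern across antigen-presenting cells. Mature cDC-like cells, named by Ccr7, Fscn1, Ccl22 and other maturation genes, had the highest mean of 8 of the 9 genes, and Cd86 was the exception. These orders are descriptions, since the classes were made from the same cells, and Cd86 and Cd83 were among the variable genes used for clustering. Mature cDC-like cells were few, with 28 and 18 cells in the Smc3-cKO libraries and 76 and 37 in the Smc3-WT libraries.

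**Figure D1:**
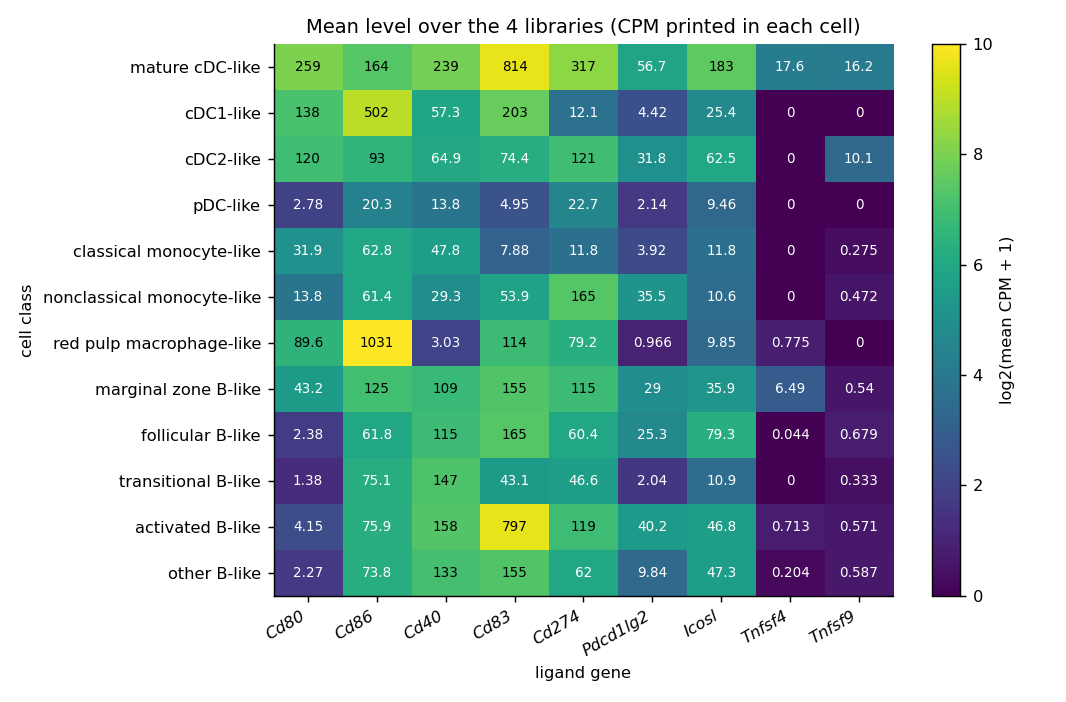
Mean level of the 9 ligand genes in 12 classes of antigen-presenting cells, averaged over the 4 libraries, with the CPM printed in each cell and log2(mean CPM + 1) as colour. Mature cDC-like cells have the highest mean of each gene but Cd86, which is highest in red pulp macrophage-like cells at 1031 CPM.

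Among the CD28 ligands, Cd86 was highest in red pulp macrophage-like cells, the macrophages that clear old red cells and recycle their iron. They held 1147 and 1171 CPM in Smc3-cKO libraries, against 860 and 945 CPM in Smc3-WT libraries. The mean of 1031 ± 152 CPM (SD, n = 4) lay beyond the range of the class that came next, cDC1-like cells with 502 ± 172 CPM. With cells chosen by a per-cell marker gate in place of clusters, red pulp macrophages were still first but stood at 487.0 CPM, with a range of 353 to 637 CPM that overlapped that of cDC1, 362 to 582 CPM. cDC1-like cells in turn lay beyond mature cDC-like cells, at 164 ± 69.4 CPM. The neighbours after that overlapped, except that pDC-like cells (plasmacytoid dendritic cells) were lowest at 20.3 ± 9.02 CPM. Cd80 followed another order, with 259 ± 143 CPM in mature cDC-like cells, 138 ± 63.1 in cDC1-like cells, 120 ± 59.9 in cDC2-like cells and 89.6 ± 41.5 in red pulp macrophage-like cells. Each of these overlapped with the next. Under the per-cell marker gate Cd80 was higher in cDC1, at 140 CPM (120 to 184), than in mature cDC, at 119 CPM (7.31 to 214), and the ranges overlapped. Among B cells, Cd80 was highest in marginal zone B-like cells, 43.2 ± 10.1 CPM, against 2.38 ± 1.18 CPM in follicular B-like cells. These 2 ranges did not overlap, at 32.7 to 55.1 CPM and 1.28 to 4.05 CPM.

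For the PD-1 ligands, Cd274 in mature cDC-like cells lay beyond its neighbour, with 317 ± 151 CPM against 165 ± 25.8 CPM in nonclassical monocyte-like cells, the patrolling monocytes. cDC2-like cells (121 ± 67.0), activated B-like cells (119 ± 17.9) and marginal zone B-like cells (115 ± 3.53 CPM) overlapped. The sister subset, cDC1-like cells, had 12.1 ± 14.1 CPM, near the 11.8 ± 3.88 CPM of classical monocyte-like cells. In cDC1-like cells no Cd274 UMI was found in the 48 Smc3-cKO cells, which allows up to 13.8 and 35.4 CPM in the 2 libraries by the exact 95% Poisson interval, against 8 and 7 UMIs in the Smc3-WT libraries. Pdcd1lg2 was much rarer. It averaged 56.7 ± 27.5 CPM in mature cDC-like cells, 40.2 ± 8.21 in activated B-like cells, 35.5 ± 12.5 in nonclassical monocyte-like cells and 31.8 ± 19.2 in cDC2-like cells, all overlapping. It was low in transitional B-like cells, at 2.04 ± 0.549 CPM.

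Cd83 had 2 high classes. Mature cDC-like cells held 814 ± 193 CPM and activated B-like cells 797 ± 75.9 CPM, beyond cDC1-like cells at 203 ± 37.4 CPM. Cd83 was also among the 10 leading genes of the activated B-like cluster, so its level there is part of how that cluster is defined. Cd40 was spread across all B classes, from 109 ± 25.1 CPM in marginal zone B-like to 158 ± 56.1 CPM in activated B-like cells, below 239 ± 94.5 CPM in mature cDC-like cells, with every neighbour overlapping. In red pulp macrophage-like cells, 8 Cd40 UMIs were found in all 4 libraries together, 3.03 ± 4.25 CPM. Icosl averaged 183 ± 129 CPM in mature cDC-like cells, 79.3 ± 5.5 in follicular B-like cells and 62.5 ± 18.5 in cDC2-like cells.

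The TNF family ligands were scarce. Tnfsf4 was found at 7.16 and 10.6 CPM in marginal zone B-like cells of Smc3-cKO libraries, against 3.49 and 4.74 CPM in Smc3-WT libraries. Its mean there, 6.49 ± 3.12 CPM, lay beyond each of the 10 antigen-presenting classes ranked lower. Innate-like or gamma delta T-like cells, which are not among those classes, overlapped it at 5.68 ± 2.02 CPM (3.05 to 7.58). The higher mean of mature cDC-like cells, 17.6 CPM, rested on 4 UMIs of Smc3-cKO replicate 1, and no UMI was found in the other 3 libraries. Tnfsf9 averaged 16.2 ± 16.3 CPM in mature cDC-like cells, where it rested on 6 UMIs, and 10.1 ± 9.1 CPM in cDC2-like cells. In the other 10 classes it averaged under 1 CPM.

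CD4 T-like cells show how much of these levels could be free RNA. They averaged 0.865 CPM of Cd80, 15.3 of Cd86, 2.92 of Cd40, 5.54 of Cd83, 1.37 of Pdcd1lg2 and 3.19 of Icosl. Each of these means was lower in Smc3-cKO than in Smc3-WT. Cd83 had 2.87 ± 1.94 against 8.21 ± 9.44 CPM (SD, n = 2) and Icosl 1.6 ± 0.139 against 4.77 ± 3.95 CPM, so the Smc3-WT libraries differed widely. The genotypes overlapped for Cd86, Cd40, Cd83 and Pdcd1lg2, but not for Cd80 and Icosl. Cd274 stood at 42.2 CPM, a gene that T cells are known to express. In all B-like cells the T cell markers summed to 24.6 and 19.7 CPM in Smc3-cKO libraries, against 124 and 29.6 CPM in Smc3-WT libraries. The part of this uneven background in the genotype changes was not tested. By cell, a Cd274 UMI was found in 23.9% of 234 Smc3-cKO and 40.3% of 258 Smc3-WT cDC2-like cells, whose median depths were 6242 and 5411.5 against 4066 and 4703 UMIs. In CD4 T-like cells, with medians of 4155 and 2876 against 2675 and 2989 UMIs, the shares were 11.2% in Smc3-cKO and 8.83% in Smc3-WT. After thinning each cell to 1000 UMIs, which left out 2 and 14 cells, the shares were 6.47% in Smc3-cKO and 18.9% in Smc3-WT. In CD4 T-like cells the thinned shares were 4.09% and 3.62%. For Cd80 the thinned shares were 8.19% and 11.1% in cDC2-like cells, and 0.0524% and 0.142% in CD4 T-like cells.

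Genes with the most similar pattern were sought by Pearson's r of log2(CPM + 1) over 17 classes, among 10258 genes. Mature cDC- and cDC1-like cells were too few in Smc3-cKO replicate 2 to be among these classes. Classes share libraries and depth, so r is a description. Icosl was most like the MHC class II genes H2-Eb1 (0.898), H2-Aa (0.884) and H2-Eb2 (0.875). Cd86 was most like Il18 (0.888), Tent2 (0.888) and Lgmn (0.885), and Cd40 most like Pold4 (0.948), Lrrk2 (0.938) and 9030404E10Rik (0.931). Cd80 came closest to B4galt6 (0.868), Wdfy2 (0.852) and Nlrp1b (0.85), and Cd83 to Rasgef1b (0.871), Snx11 (0.864) and Fcrl1 (0.861). Cd274 was nearest to Tstd2 (0.896), Bcl2a1b (0.768) and Nfat5 (0.728), and Pdcd1lg2 to Ccdc9 (0.792), Poglut1 (0.752) and Nfkb1 (0.748). Among the ligands themselves, Cd40 and Icosl were the most alike at 0.813. The 2 neighbours Cd274 and Pdcd1lg2 reached 0.45, and the 2 CD28 ligands Cd80 and Cd86 0.51.

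Genotypes were compared in each class on summed counts with edgeR's quasi-likelihood test and Benjamini-Hochberg adjustment over all genes tested, with 0.05 as the threshold. Changes are log2, Smc3-cKO over Smc3-WT. In cDC2-like cells, 6 of the 7 ligands tested had lower levels in both Smc3-cKO libraries than in both Smc3-WT libraries, and 0 of 7 passed the threshold. Of all 7241 genes tested there, 18.9% were lower without overlap, and 0.981% passed the threshold. The median log2 change of the 7 was -0.98, against 0.01 for all genes. At an unadjusted p under 0.05 there were 4 of the 7, Cd80, Cd86, Cd274 and Pdcd1lg2, against 9.79% of all genes, and DESeq2 called 0 of 7. Tnfsf4 and Tnfsf9 had too few counts to be tested.

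The PD-1 ligands had the lowest fitted changes of the 7. Cd274 had 53.0 and 86.3 CPM in Smc3-cKO libraries, against 207 and 138 CPM in Smc3-WT libraries. Pdcd1lg2 had 13.8 and 16.8 CPM in Smc3-cKO libraries, from 6 and 16 UMIs, against 46.2 and 50.4 CPM in Smc3-WT libraries, from 19 and 37 UMIs. Neither gene's genotypes overlapped. By edgeR, the log2 change of Cd274 was -1.28 (SE 0.33, adjusted p = 0.123). That of Pdcd1lg2 was -1.66 (SE 0.42, adjusted p = 0.12). Without Smc3-WT replicate 2, Cd274 passed the threshold with adjusted p = 0.00145, as did Cd80 (0.00338) and Cd86 (0.0358), as 10.7% of all genes did in that fit. Without Smc3-cKO replicate 2, Cd274 passed with 0.0375, as 1.55% of genes did. Without a filter on low counts, Cd274 (0.0139) and Pdcd1lg2 (0.0241) passed, as 2.22% of genes did. In a fit without 1 library, the lone library of its genotype is assumed to vary like those of the other genotype.

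Of the CD28 ligands, Cd86 had 50.7 and 73.7 CPM in Smc3-cKO libraries, against 139 and 109 CPM in Smc3-WT libraries. Cd80 had 76.1 and 85.3 CPM in Smc3-cKO libraries, against 207 and 112 CPM in Smc3-WT libraries, with Smc3-WT replicate 1 far above the rest. Both genes had an edgeR log2 change of -0.98, with SE 0.31 and adjusted p = 0.231 for Cd86, and SE 0.33 and adjusted p = 0.274 for Cd80. Icosl had 41.5 and 56.9 CPM in Smc3-cKO libraries, against 65.7 and 85.8 CPM in Smc3-WT libraries. Cd83 had 50.7 and 77.9 CPM in Smc3-cKO libraries, against 80.3 and 88.5 CPM in Smc3-WT libraries. Their genotypes lay apart by little, with log2 changes of -0.65 (SE 0.34) for Icosl and -0.40 (SE 0.32) for Cd83. Cd40, with 59.9 and 71.6 CPM in Smc3-cKO libraries and 80.3 and 47.7 CPM in Smc3-WT libraries, overlapped and had a log2 change of 0.06 (SE 0.36). The untested Tnfsf9 went the other way, with 10 and 9 UMIs (23.1 and 9.48 CPM) in Smc3-cKO libraries, against 1 and 4 UMIs (2.43 and 5.45 CPM) in Smc3-WT libraries.

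**Figure D2:**
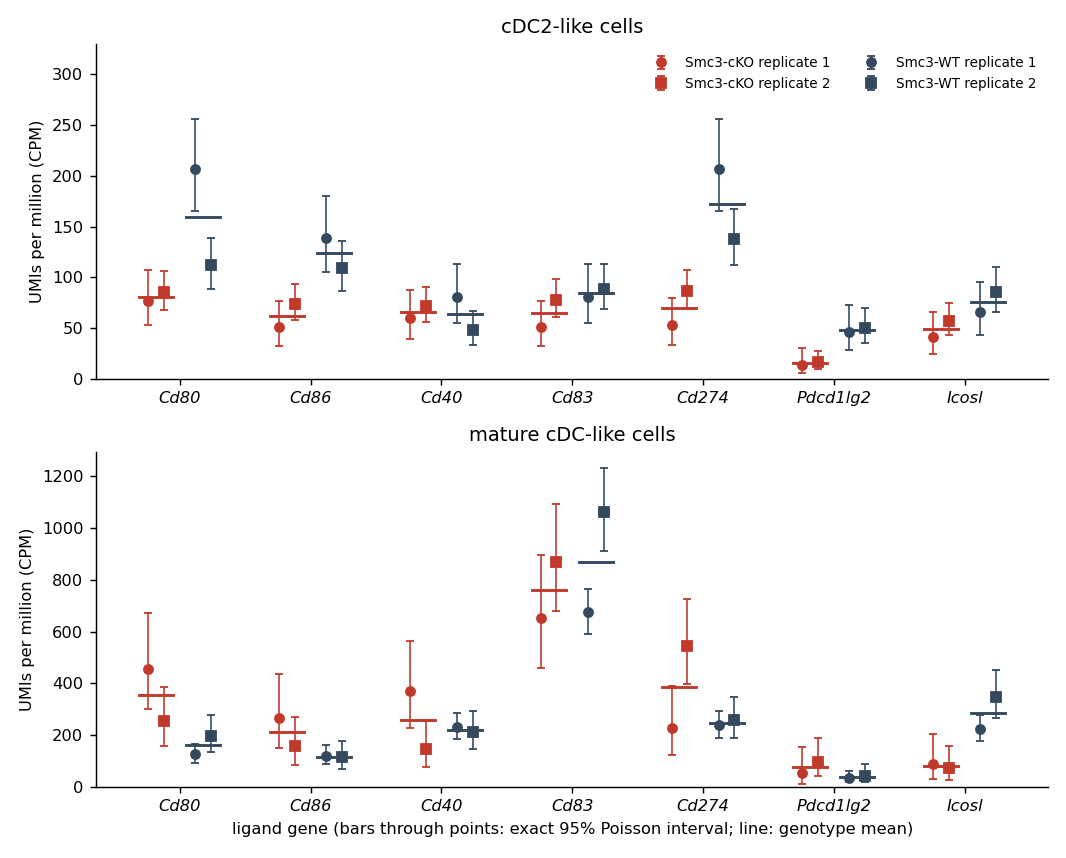
Level in CPM of 7 ligand genes in each library, in cDC2-like cells above and mature cDC-like cells below, Smc3-cKO in red and Smc3-WT in dark blue, with exact 95% Poisson intervals that cover counting error only and a line at each genotype's mean. In cDC2-like cells both Smc3-cKO libraries lie below both Smc3-WT libraries for 6 genes, all but Cd40, and in mature cDC-like cells for Icosl.

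Different clusters held most of the cDC2-like cells in the 2 genotypes. One cluster, led by Cyp7b1, Cd209a and Cd209d, held 67.6% and 60.8% of the cDC2-like cells in Smc3-cKO libraries, against 14.3% and 21.0% in Smc3-WT libraries. The other, led by Adam23 and Frmd5, held 32.4% and 39.2% in Smc3-cKO libraries, against 85.7% and 79.0% in Smc3-WT libraries. In the Cd209a cluster the cDC2 markers summed to 1232 and 1639 CPM in Smc3-cKO libraries, against 1294 and 905 CPM in Smc3-WT libraries, with Esam at 0. The pDC markers, a list that holds Cd209d, summed to more, 5443 and 6044 CPM against 4807 and 3969 CPM, beside 16709 to 22252 CPM in pDC-like cells. At Leiden resolution 2, a cluster led by Cyp7b1, Cd209d and Cd209a was named pDC-like by the same rule, with 23 and 53 cells in Smc3-cKO libraries against 9 and 14 in Smc3-WT libraries. The cDC2 name of the Cd209a cluster thus depends on the resolution. The cDC2-like class at that resolution leaves those cells out, but its clusters were still uneven between genotypes. A cluster led by Cd209a and Clec10a gave it 24 and 65 cells in Smc3-cKO libraries, against 6 and 28 in Smc3-WT libraries. A cluster led by Adam23 and Dscam gave it 8 and 24 cells, against 59 and 97. In that class the log2 changes of Cd274 and Pdcd1lg2 were -1.47 (SE 0.39, edgeR adjusted p = 0.157) and -2.12 (SE 0.69, edgeR adjusted p = 0.29). That of Cd86 was -0.60. At resolution 1, Cd274, Pdcd1lg2, Cd86, Cd80 and Cd83 were lower in the Cd209a cluster in both genotypes. This is a description, since the clusters were made from these cells. Cd274 stood at 39.8 CPM in Smc3-cKO and 15.7 CPM in Smc3-WT cells of the Cd209a cluster, from 36 and 4 UMIs, and at 144 and 204 CPM in the Adam23 cluster. Cd86 stood at 24.4 and 27.6 CPM in the Cd209a cluster, and at 146 and 146 CPM in the Adam23 cluster. Cd80 stood at 45.4 and 39.4 CPM in the Cd209a cluster, and at 152 and 176 CPM in the Adam23 cluster. Cd40 and Icosl differed less between the clusters, with 58.7 and 55.1 CPM of Cd40 in the Cd209a cluster, and 85.4 and 60.6 CPM in the Adam23 cluster. Tnfsf9 had 17 and 5 UMIs in the Cd209a cluster, in Smc3-cKO and Smc3-WT cells, against 2 and 0 in the Adam23 cluster.

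**Figure D3:**
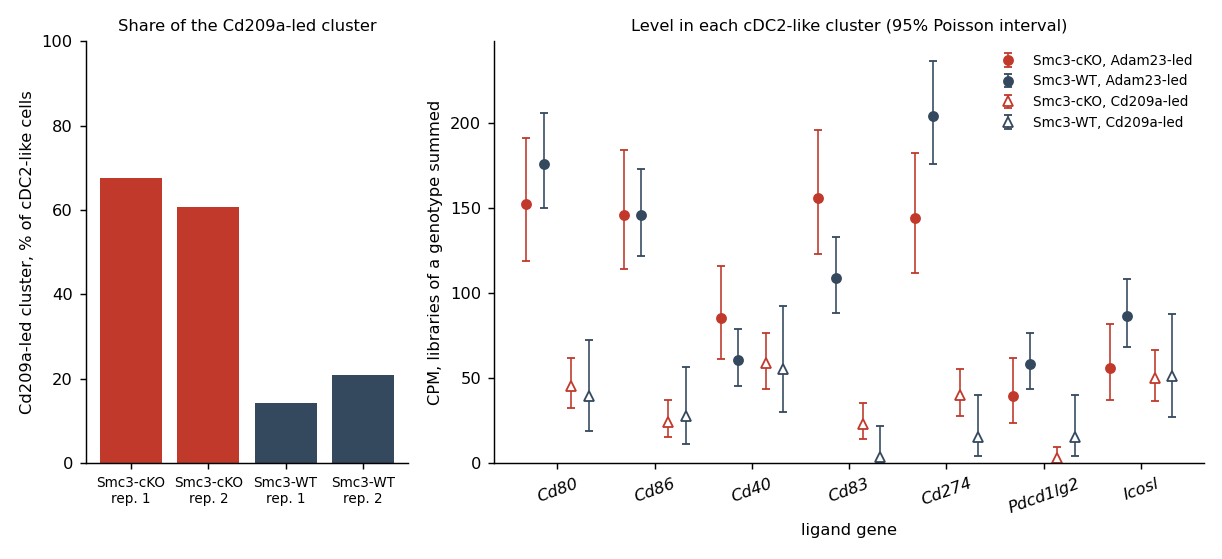
Left, the share of cDC2-like cells that belong to the Cd209a cluster in each library, and right, the level of 7 ligand genes in each cDC2-like cluster by genotype in CPM, with exact 95% Poisson intervals. The share is 67.6% and 60.8% in Smc3-cKO libraries against 14.3% and 21.0% in Smc3-WT libraries, and Cd274, Cd86 and Cd80 are lower in the Cd209a cluster (triangles) than in the Adam23 cluster (filled circles) in both genotypes.

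Within the Adam23 cluster alone the genotypes were closer. Cd274 had 104 and 159 CPM in Smc3-cKO libraries, against 239 and 182 CPM in Smc3-WT libraries, and did not overlap. Pdcd1lg2, with 29.6 and 43.5 CPM in Smc3-cKO libraries against 54.1 and 61.1 CPM in Smc3-WT libraries, did not overlap either, nor did Icosl, with 66.6 and 52.2 CPM against 71.2 and 96.3 CPM. Cd86 overlapped, with 81.4 and 171 CPM in Smc3-cKO libraries and 162 and 135 CPM in Smc3-WT libraries, and so did Cd80 and Cd83. By edgeR the log2 changes were -0.62 for Cd274 (SE 0.32, adjusted p = 0.868), -0.59 for Pdcd1lg2, -0.56 for Icosl, -0.23 for Cd80 and -0.14 for Cd86. Those of Cd40 and Cd83 were 0.46 and 0.45, and Cd40 was higher without overlap, as were 16.9% of genes. The 3 ligands lower without overlap compare with 18.9% of the 5739 genes tested. In edgeR, 0 of 7 passed the threshold, which 0.261% of genes did, and 0 of 7 had an unadjusted p under 0.05, as 6.17% of genes had. DESeq2 called 0 of 7. In the Cd209a cluster only Cd40, Icosl and Cd80 could be tested, with changes of -0.02, -0.09 and 0.08. Of genes there, 0.0% passed edgeR, 3.74% had an unadjusted p under 0.05, and 0 of the 3 ligands did either; DESeq2 called 0. Smc3-cKO replicate 1 gave 22 cells to the Adam23 cluster and Smc3-WT replicate 1 gave 13 to the Cd209a cluster, so these values rest on few cells.

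Markers of other cell types moved with the genotype in cDC2-like cells. The 10 pDC markers, of which Klk1 was at 0 and the other 9 were detected, summed to 3951 and 4160 CPM in Smc3-cKO libraries, against 1339 and 1415 CPM in Smc3-WT libraries. Most of the sum came from Tcf4, with 1810 and 2149 CPM against 609 and 621 CPM, and Runx2, with 1106 and 1311 CPM against 482 and 470 CPM. Within the Adam23 cluster they summed to 651 and 858 CPM in Smc3-cKO libraries, against 751 and 495 CPM in Smc3-WT libraries. The 8 classical monocyte markers, all detected, summed to 1607 and 1010 CPM in Smc3-cKO libraries, against 616 and 592 CPM in Smc3-WT libraries. The 8 pan-B markers, all detected, went the other way, with 99.1 and 125 CPM in Smc3-cKO libraries and 536 and 272 CPM in Smc3-WT libraries, beside 15477 to 17670 CPM in B cells. Erythroid markers, 6 of 6 detected, were high in Smc3-WT replicate 1 alone, at 4391 CPM, against 775 and 5.26 CPM in Smc3-cKO libraries and 50.4 CPM in Smc3-WT replicate 2. The part of these in the ligand values was not tested.

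Mature cDC-like cells gave a different picture, and were tested with a minimum of 10 in place of 20 cells per library. Icosl had 5 and 6 UMIs (88.0 and 72.4 CPM) in Smc3-cKO libraries, against 82 and 58 UMIs (224 and 348 CPM) in Smc3-WT libraries. Both Smc3-cKO libraries were below both Smc3-WT libraries, as for 21.4% of the 2679 genes tested. By edgeR its log2 change was -1.85 (SE 0.49, adjusted p = 0.101). It passed without Smc3-cKO replicate 1 (adjusted p = 0.0498) and without a filter on low counts (0.0144), as 1.74% and 1.03% of genes did. The CD28 ligands were not lower here. Cd80 had 457 and 253 CPM in Smc3-cKO libraries, against 125 and 198 CPM in Smc3-WT libraries, and Cd86 had 264 and 157 CPM against 120 and 114 CPM. Neither overlapped, as for 23.5% of genes in that direction, and their edgeR log2 changes were 1.12 (SE 0.43, adjusted p = 0.281) and 0.77 (SE 0.45, adjusted p = 0.51). Cd274 (0.64), Cd40 (0.13) and Cd83 (-0.21) overlapped between genotypes. Pdcd1lg2, with 3 and 8 UMIs in Smc3-cKO libraries and 13 and 7 in Smc3-WT libraries, was too rare to be tested. In all, 0 of 6 ligands passed the threshold by edgeR or DESeq2, which in edgeR 1.19% of genes did, and Cd80 and Icosl were under 0.05 before adjustment, as 13.2% of genes were.

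The mature cDC-like cells of Smc3-cKO replicate 1 were shallow, with a median of 830.5 UMIs against 4429 in Smc3-cKO replicate 2 and 4308.5 and 4276 in the Smc3-WT libraries. Of its 28 cells, 21 came from a cluster with a median of 1222 UMIs. The pan-B markers summed to 158 and 24.1 CPM in Smc3-cKO libraries, against 1533 and 1057 CPM in Smc3-WT libraries, while Icosl in all B-like cells stood at 49.1 to 58.9 CPM. The 10 maturation markers, all detected, summed to 5119 and 4415 CPM in Smc3-cKO libraries, against 4486 and 6433 CPM in Smc3-WT libraries. The part of depth and B cell RNA in these values was not tested.

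When cDC1-, cDC2- and mature cDC-like cells were summed, Icosl and Cd83 had the smallest p-values of the ligands. Icosl had 35.6 and 54.5 CPM in Smc3-cKO libraries, against 106 and 112 CPM in Smc3-WT libraries. Cd83 had 132 and 147 CPM in Smc3-cKO libraries, against 327 and 256 CPM in Smc3-WT libraries. Neither overlapped. By edgeR the log2 changes were -1.34 (SE 0.29, adjusted p = 0.0856) for Icosl and -1.14 (SE 0.27, adjusted p = 0.111) for Cd83, and 0 of 8 ligands passed, against 0.606% of 9071 genes. DESeq2 also called 0 of 8. At an unadjusted p under 0.05 there were 5 of 8, against 10.9% of genes, and 5 of 8 were lower without overlap, against 17.3% of genes. Mature cells, high in both genes, made up 21.5% and 9.09% of these cells in Smc3-cKO libraries, against 34.7% and 14.5% in Smc3-WT libraries. With the mature cells left out, the changes were -0.56 for Icosl and -0.66 for Cd83. In those cells 5 of 7 ligands were lower without overlap, against 16.5% of 8489 genes, the same 5 had an unadjusted p under 0.05, against 8.92% of genes, and 0 of 7 passed edgeR or DESeq2, against 0.648% by edgeR. With the replicate number as a block, Icosl in the summed cells passed the threshold (log2 change -1.36, adjusted p = 0.0281), as it did when Smc3-WT replicate 1 (0.00752) or Smc3-WT replicate 2 (0.00337) was left out. In those 3 fits 3.21%, 2.26% and 11.9% of all genes passed, and in the last 6 of the 8 ligands did. Tnfsf9 had 15.8 and 9.67 CPM in Smc3-cKO libraries, against 2.77 and 3.3 CPM in Smc3-WT libraries, with a log2 change of 1.91 (SE 0.64, edgeR adjusted p = 0.282), and 24.7% of genes were higher without overlap.

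In the remaining classes 0 ligands passed the threshold by edgeR or DESeq2. In cDC1-like cells, tested with the minimum of 10 cells, Cd86 had 414 and 451 CPM in Smc3-cKO libraries and 757 and 385 CPM in Smc3-WT libraries, which overlapped. The 4 ligands tested there had log2 changes of -0.66 (Cd80), -0.55 (Cd40), -0.47 (Cd83) and -0.46 (Cd86), and 0.45% of genes passed. Of these only Cd83 was lower without overlap, as were 14.9% of genes. In classical monocyte-like cells Cd86 had 59.9 and 36.4 CPM in Smc3-cKO libraries, against 69.5 and 85.6 CPM in Smc3-WT libraries, with a log2 change of -0.69 (SE 0.41). Cd86 and Cd40 were lower there without overlap, as were 17.4% of genes, and 0.0% of genes passed. In nonclassical monocyte-like cells Cd274 had 130 and 166 CPM in Smc3-cKO libraries, against 192 and 173 CPM in Smc3-WT libraries, with a log2 change of -0.33 (SE 0.26). Pdcd1lg2 had 22.8 and 28.3 CPM in Smc3-cKO libraries, against 50.7 and 40.2 CPM in Smc3-WT libraries, with a log2 change of -0.86 (SE 0.41). These genes were lower without overlap, as were 14.6% of genes, and 0.0% of genes passed. Red pulp macrophage-like cells had a log2 change of 0.32 (SE 0.28) for Cd86, where both Smc3-cKO libraries lay above both Smc3-WT libraries, as for 18.4% of genes, and 0.0656% of genes passed. At an unadjusted p under 0.05 there were 0 ligands in each of these 4 classes, against 5.43% of genes in cDC1-like, 3.7% in classical monocyte-like, 2.91% in nonclassical monocyte-like and 4.81% in red pulp macrophage-like cells. No ligand had enough counts to be tested in pDC-like cells, where 0.0% of 5404 genes passed.

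In B cells no ligand passed the threshold. In all B-like cells Cd83 had 224 and 251 CPM in Smc3-cKO libraries, against 195 and 208 CPM in Smc3-WT libraries. Cd274 had 74.8 and 83.2 CPM in Smc3-cKO libraries and 66.9 and 75.1 CPM in Smc3-WT libraries, which overlapped. The log2 changes of the 9 ligands ran from 0.13 (Cd274, SE 0.16) to 1.08 (Tnfsf4, SE 0.62), with a median of 0.21, and all 9 were above 0, where 50.3% of genes were below 0. Both Smc3-cKO libraries lay above both Smc3-WT libraries for 5 of the 9, against 12.5% of the 13310 genes tested, and 0.0% of genes passed the edgeR threshold. At an unadjusted p under 0.05 there were 0 ligands and 2.4% of genes, and DESeq2 called 0 of the 9. In activated B-like cells, Cd83 had 911 and 763 CPM in Smc3-cKO libraries, against 757 and 758 CPM in Smc3-WT libraries, a log2 change of 0.12 (SE 0.23). Tnfsf4 in marginal zone B-like cells had a log2 change of 1.06 (SE 0.45) from 17 and 51 UMIs in Smc3-cKO libraries, against 6 and 21 UMIs in Smc3-WT libraries, with an edgeR adjusted p of 0.9999. It lay above without overlap, as did Cd83 and 12.7% of genes there. In the B subsets 0 ligands passed edgeR or DESeq2 or had an unadjusted p under 0.05. There edgeR called 0.0086% of genes in follicular, 0.0208% in transitional, 0.00947% in other and 0.0% in marginal zone and activated B-like cells. Its unadjusted p was under 0.05 for 2.01% of genes in follicular, 2.83% in transitional and 1.71% in other B-like cells. In marginal zone and activated B-like cells it was so for 1.51% and 1.77%.

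**Figure D4:**
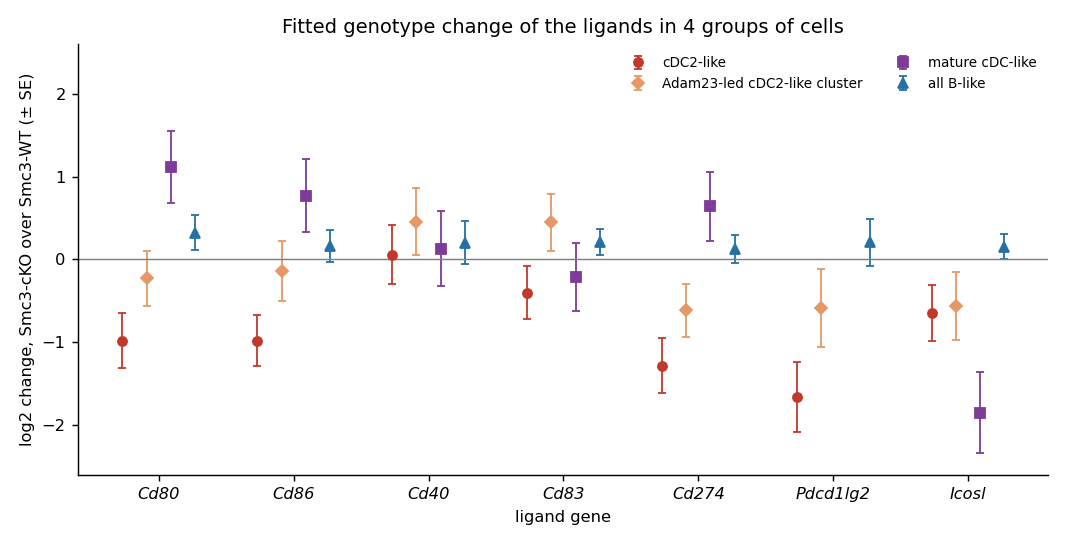
Fitted log2 change, Smc3-cKO over Smc3-WT, of 7 ligand genes with its standard error, in cDC2-like cells, the Adam23 cluster of cDC2-like cells, mature cDC-like cells and all B-like cells. Points below 0 are lower in Smc3-cKO: Cd274 stands at -1.28 in cDC2-like cells, -0.62 in the Adam23 cluster, 0.64 in mature cDC-like cells and 0.13 in all B-like cells.

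Whether the genotype effect itself differed between cell types was tested with an interaction term in a model blocked by library. Between cDC-like cells without the mature ones and all B-like cells, 5 ligands had a lower effect in cDC-like cells past edgeR's threshold, as 2.63% of the 13286 genes tested differed in either direction. Their differences in log2 change were -1.20 for Cd86 (SE 0.24, adjusted p = 0.000628), -1.26 for Cd274 (0.0027), -1.19 for Cd80 (0.00878), -0.91 for Cd83 (0.021) and -1.49 for Pdcd1lg2 (0.0349). In those cDC-like cells Cd86 had 190 and 111 CPM in Smc3-cKO libraries, against 403 and 191 CPM in Smc3-WT libraries, and Cd274 had 32.8 and 77.8 CPM against 130 and 103 CPM. Neither overlapped, though Cd86 in Smc3-cKO replicate 1 and Smc3-WT replicate 2 differed by little. In all B-like cells Cd86 had 89.3 and 75.9 CPM in Smc3-cKO libraries and 85.5 and 60.5 CPM in Smc3-WT libraries. Icosl (-0.73), Cd40 (-0.26) and Tnfsf9 (1.16) did not pass. Leaving out 1 library at a time changed how many of the 5 passed, and without Smc3-WT replicate 1 none did. Over these fits the differences ran from -1.44 to -0.872 for Cd86, -1.9 to -0.824 for Cd274 and -1.61 to -0.706 for Cd80. Those of Cd83 ran from -1.02 to -0.72, and those of Pdcd1lg2 from -1.59 to -1.37. With RLE scaling in place of TMM 4 passed, as 1.93% of genes did, with Pdcd1lg2 at an edgeR adjusted p of 0.057. The pan-B markers in these cDC-like cells summed to 274 and 120 CPM in Smc3-cKO libraries, against 820 and 667 CPM in Smc3-WT libraries, and the pDC markers to 2685 and 3809 CPM against 1018 and 1156 CPM. The cDC1 markers summed to 4218 and 1772 CPM in Smc3-cKO libraries, against 5733 and 3634 CPM in Smc3-WT libraries. Cd86 averaged 502 CPM in cDC1-like cells and 93.0 CPM in cDC2-like cells. The part of these cell types in the differences was not tested.

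For cDC2-like cells against all B-like cells, a comparison added after the data were seen, 4 ligands passed. The differences were -1.38 for Cd274 (edgeR adjusted p = 6.2e-05), -1.89 for Pdcd1lg2 (0.00302), -1.12 for Cd86 (0.00602) and -1.24 for Cd80 (0.0132), where 2.76% of 13159 genes passed. Again none passed without Smc3-WT replicate 1, and fewer passed in each other fit without 1 library. Over these fits the differences ran from -1.77 to -1.05 for Cd274 and from -2.16 to -1.72 for Pdcd1lg2. Those of Cd86 ran from -1.64 to -0.826, and those of Cd80 from -1.64 to -0.874. For the Adam23 cluster alone against all B-like cells, 0 ligands passed, where 0.832% of genes did, and the difference for Cd274 was -0.82 (SE 0.30, edgeR adjusted p = 0.268). Cd274 and Icosl had an unadjusted p under 0.05 there, as had 7.47% of genes. For mature cDC-like against all B-like cells, Icosl passed at -2.22 (SE 0.56, edgeR adjusted p = 0.0219), where 0.451% of genes did. Icosl did not pass without Smc3-cKO replicate 2, Smc3-WT replicate 1 or Smc3-WT replicate 2. Its difference ran from -2.56 to -2.05 over the fits without 1 library. No ligand differed past the threshold between cDC2- and cDC1-like cells, where 0.371% of genes did, or between classical monocyte-like and cDC2-like cells, where 0.273% did. At an unadjusted p under 0.05, Cd274 did in the cDC comparison, as 471 of 6730 genes did, and Cd274 and Cd40 in the monocyte comparison, as 7.54% of genes did. The Cd274 value of the cDC comparison is set against the count of 0 in cDC1-like cells of both Smc3-cKO libraries.

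The receptors of these ligands, other ligands of the same families and regulators of both, 48 genes in all, were looked up in the same fits. In cDC2-like cells 5 of 14 other ligands, 5 of 13 receptors and 18 of 21 regulators could be tested, with median log2 changes of 0.24, -0.01 and -0.11, and 0 passed the threshold in either direction. In the summed cDC-like cells 6, 5 and 18 could be tested, and 0 passed. In all B-like cells 8, 10 and 21 could be tested, and 0 passed. The genes nearest to the threshold, named after their values were seen, were Icos and Traf1 in the summed cDC-like cells and Havcr2 in cDC2-like cells. Icos, the receptor of ICOSL, had 10.5 and 13.2 CPM in Smc3-cKO libraries, against 79.3 and 42.1 CPM in Smc3-WT libraries (log2 change -2.40, edgeR adjusted p = 0.062). It is a T cell gene, and the 7 T cell markers, all detected, summed to 14.5 and 27.3 CPM in Smc3-cKO libraries, against 113 and 40.4 CPM in Smc3-WT libraries. In mature cDC-like cells Icos had 17.6 and 36.2 CPM in Smc3-cKO libraries, against 169 and 144 CPM in Smc3-WT libraries, beside 83.0 to 111 CPM in all T-like cells. The T cell markers in mature cDC-like cells summed to 17.6 and 12.1 CPM against 153 and 12.0 CPM. The part of T cell RNA and of the share of mature cells in the Icos values was not tested. Traf1, an adaptor of TNF receptor signalling, had 113 and 129 CPM in Smc3-cKO libraries, against 339 and 235 CPM in Smc3-WT libraries (log2 change -1.32, edgeR adjusted p = 0.0876). Havcr2, which encodes TIM-3, had 99.1 and 113 CPM in Smc3-cKO libraries, against 207 and 270 CPM in Smc3-WT libraries (log2 change -1.21, edgeR adjusted p = 0.0779). In these 3 genes the genotypes did not overlap, as for 17.3% and 18.9% of genes lower in the summed cDC-like and in the cDC2-like cells.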

How the data were processed

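The deposited values are gene by barcode counts of UMIs, made by the authors with Cell Ranger 7.0.0, per the file headers, from Chromium 3′ libraries of spleen cells depleted of red blood cells, per the labels' protocols. The submitters' processing notes name the mm10 build, Juicer and deepTools, with no role given. The libraries held 9074 and 14122 barcodes (Smc3-cKO) and 16096 and 14352 barcodes (Smc3-WT), with medians of 3844.5, 2772, 2728 and 2806 UMIs.

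Barcodes under 200 genes or over 10% mitochondrial UMIs were dropped, and doublets called by Scrublet in scanpy 1.11.5 were removed. Cells were clustered in 2 rounds on 2000 variable genes (30 principal components, 20 in the myeloid round, 15 neighbours, Leiden resolution 1, igraph 0.11.9, Python 3.11.15). Clusters were named from marker lists by a rule set after the clusters were seen: a cluster was left unnamed where markers of 2 lineages met, or where depth was low and no own marker led. UMIs were summed per class and library, with 20 cells per library as the minimum (10 as an alternative added after seeing the data). Levels are CPM with exact 95% Poisson intervals, which cover counting error only. Genotypes were compared with edgeR 4.0.16 (filterByExpr, TMM, quasi-likelihood F test, Benjamini-Hochberg adjustment, threshold 0.05) in R 4.3.3, on the 2 against 2 libraries, with DESeq2 1.42.0 as an alternative. The adjusted p-values quoted with interaction terms come from edgeR too. Tested on simulated counts, edgeR recovered 91% of genes changed by a log2 of 2 in cDC2-like cells and 67% in the interaction. The simulation set a fixed spread between libraries and changed only genes with higher counts, by a log2 of 2 or more. No change was put into a gene as rare as Pdcd1lg2, which had 78 UMIs in cDC2-like cells. Changes as small as those of the ligands in cDC2-like cells were not simulated. These shares therefore do not say how often such changes would be found.

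The members, gene lists and tests were chosen with earlier results of these data known. All 9 members are named, pathway genes only where they passed the threshold, apart from those said to be chosen after their values were seen, and for each member the 3 genes of most similar pattern. Promoters come from RefSeq (GRCm38.p6), whose list matched 4 of the 9 members. The libraries share replicate numbers 1 and 2, but the labels tie no number to an animal or batch. The other 26 samples were not used here.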

Additional observations from a re-analysis of the deposited data

Results flagged for a closer look

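The genotype effect of 5 ligands differed between cDC-like cells without the mature ones and all B-like cells. They passed edgeR's threshold in a test of the difference itself, as 2.63% of the 13286 genes tested did. The differences in log2 change were -1.19 for Cd80, -1.2 for Cd86, -0.905 for Cd83, -1.26 for Cd274 and -1.49 for Pdcd1lg2. For cDC2-like cells against all B-like cells, 2.76% of genes passed the threshold. The ligands among them differed by -1.24 for Cd80, -1.12 for Cd86, -1.38 for Cd274 and -1.89 for Pdcd1lg2. For the Adam23 cluster of cDC2-like cells alone against all B-like cells no ligand passed, where 0.832% of genes did. That cluster held 32.4% and 39.2% of cDC2-like cells in Smc3-cKO libraries, against 85.7% and 79.0% in Smc3-WT libraries. In mature cDC-like against all B-like cells the difference for Icosl was -2.22, where 0.451% of genes passed. None of these 10 differences passed when Smc3-WT replicate 1 was left out.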

How the results depend on the processing

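With 2 libraries per genotype and few dendritic cells, calls near the threshold move with single libraries. Without a filter on low counts, 2 ligands passed in cDC2-like cells, 1 in mature cDC-like cells and 2 in the summed cDC-like cells, as 2.22%, 1.03% and 3.52% of all genes did. With the ligands left out of the variable genes, 2 passed in the summed cDC-like cells (Icosl -1.41, Cd83 -1.31), as 1.8% of all genes did. That sum is another mix of cells, since its cDC1-like class had as few as 2 cells in a library, against 14 in the main clustering. With the replicate number as a block, 1 passed in the summed cDC-like cells (Icosl), and in cDC2-like cells 0 passed, with Cd274 at -1.27 (edgeR adjusted p = 0.0838) and Pdcd1lg2 at -1.67 (0.0893). The block changed the number of ligands called in no other class. Same-numbered libraries deviated together (r of 0.245 over 3914 genes in cDC2-like cells and 0.68 over 3753 in all B-like cells), but 2 pairs do not show that numbers pair the libraries.

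Leaving out each library in turn leaves 1 genotype with 1 library, which is then assumed to vary like the others. It gave 0 to 3 ligands past the threshold in cDC2-like cells, 0 to 1 in mature cDC-like cells, 0 to 6 in the summed cDC-like cells and 0 to 3 in cDC-like cells without mature ones. The highest counts came without Smc3-WT replicate 2 in 3 of these classes, where 10.7% (cDC2-like), 11.9% (summed) and 8.07% (without mature ones) of all genes passed, and without Smc3-cKO replicate 1 in mature cDC-like cells, where 1.74% did. In the interactions with all B-like cells, the number of ligands past the threshold also changed with the library left out. The difference for Cd274 ran from -1.9 to -0.824 for cDC-like cells without mature ones and from -1.77 to -1.05 for cDC2-like cells. That for Icosl in mature cDC-like cells ran from -2.56 to -2.05. Log2 changes that turned round when a library was left out were Cd40 in cDC2-like cells (-0.259 to 0.419), and in the Adam23 cluster Cd80 (-0.551 to 0.107), Cd86 (-0.887 to 0.23) and Cd83 (-0.0762 to 0.738). In mature cDC-like cells these were Cd40 (-0.748 to 0.683), Cd83 (-0.539 to 0.0956) and Cd274 (-0.157 to 1.0), and in cDC1-like cells Cd86 (-0.856 to 0.0725) and Cd40 (-1.94 to 0.286). The interaction of Cd40 with all B-like cells ran from -0.533 to 0.0474 for cDC-like cells without mature ones and from -0.578 to 0.234 for cDC2-like cells. In cDC2-like cells Cd274 stayed between -1.71 and -0.992 and Pdcd1lg2 between -1.82 and -1.54.

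Cd40 in mature cDC-like cells was -0.167 without the filter and -0.623 under a per-cell marker gate in place of clusters. The gate also gave -0.133 for Cd86 in red pulp macrophage-like cells and 0.15 for Cd274 in nonclassical monocyte-like cells, and a mean of 487.0 CPM for Cd86 in red pulp macrophages. Gated cDC2 had as few as 6 cells in a library, and no log2 change was fitted. Means there are given as Smc3-cKO against Smc3-WT. Cd80 (76.9 against 128 CPM) and Cd86 (22.2 against 91.7 CPM) did not overlap. Icosl (69.5 against 50.1 CPM) and Cd83 (56.9 against 86.1 CPM) overlapped. In gated cDC without mature cells, Cd86 (264 against 294 CPM) and Cd83 (154 against 174 CPM) overlapped, and Cd80 (109 against 140 CPM) did not. The share of all genes without overlap was not counted under the gate. Gated values of Cd274 and Pdcd1lg2 are not given here, so these means do not show whether their cDC2 changes hold under the gate. The cause of these differences between settings was not tested. Genes called in cDC2-like cells were 10 higher and 61 lower, against 103 and 225 with no filter, 34 and 123 with the block, and 466 and 297 without Smc3-WT replicate 2. RLE scaling left 4 of 5 ligands past the threshold in the interaction of cDC-like cells without mature ones, where 1.93% of genes passed. Of the alternative values for single genes, 350 kept direction and side of the threshold, 16 turned direction, 24 lost the threshold and 16 gained it. Of those for counts, means and other summaries, 214 kept and 21 moved. Since no ligand passed in the main fit of any single class, a kept value there is one still not past the threshold. Many of the kept counts are of classes with no ligand called in either setting.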
